A study of Homo sapiens with 8 samples.

Results

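In U2OS cells, a human osteosarcoma line, 4426 of the 15730 m6A peaks listed for control cells (28.1%; 95% exact binomial interval 27.4 to 28.8) shared no exonic base with any peak listed after YTHDF2 knockdown. N6-methyladenosine (m6A) is a methylated adenosine inside messenger and long non-coding RNA, and a peak is a stretch of RNA that an anti-m6A antibody enriched. A control peak was called unmatched when none of its exonic blocks shared a base, on the same chromosome and strand, with a block of the 13219 peaks listed for DF2 siRNA cells. Unmatched peaks were then split by their Ensembl gene: 2094 (47.3% of them, 13.3% of all control peaks) lay in a gene with a DF2 siRNA peak elsewhere, and 2332 (52.7%, or 14.8%) in a gene with none. The other 11304 control peaks are called matched. The lists themselves chose these peaks, so their number is a description, and intervals given here cover counting error only.

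The study used 8 libraries: 2 input and 2 m6A immunoprecipitation libraries from control cells, and the same from cells that received siRNA against YTHDF2 (DF2 siRNA #1 and #2). All 8 came from U2OS cells and from cytoplasmic RNA, which was fragmented before the immunoprecipitation. The labels do not say what the control cells received, whether #1 and #2 are different siRNAs, or whether libraries came from separate cultures. Each condition has 1 peak list for both of its immunoprecipitates, so no difference between the lists has a replicate check, no test was made, and library depth is unknown. A missing peak cannot be told apart from a peak just under the authors' limit, from less RNA of that gene, or from a shallower library. By the file headers the −log10 column holds a p-value for control cells and an FDR for knockdown cells, with a minimum of 1.3 in both. The limits of the 2 lists may therefore differ, and the part of this in the unmatched count was not tested. YTHDF2 itself had a matched control peak (chr1:28740371-28769316, plus strand, score 4226, 124-fold enrichment), and a peak does not measure its mRNA level. Of 10 osteoblast and mesenchymal markers, RUNX2 and COL1A1 had peaks in both lists, and no marker of neurons or hepatocytes had a peak in either.

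m6A is placed mainly by the METTL3-METTL14 methyltransferase at a short consensus whose most common core is GGAC, and in mRNA it is densest around the stop codon and in the adjoining 3′ UTR. YTHDF2 is a cytoplasmic reader: its YTH domain binds the methylated base, and the protein brings deadenylases and other decay enzymes to the transcript. Antibodies against m6A also bind m6Am, the methylated adenosine next to the cap of many mRNAs, so peaks at gene starts can hold either mark.

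Sequences are shown first for peaks at gene starts, where the RefSeq tables (GRCh38.p14) give the transcribed letters. Among unmatched peaks, 363 held whole the first 50 bases after a RefSeq start of their gene, and where a peak held several starts the 5′-most was read. The letters GGAC, searched on the transcribed strand only, were in 63 of these windows (17.4%, 13.6 to 21.7), in 256 of 1033 windows of matched peaks (24.8%, 22.2 to 27.5) and in 6632 of all 35116 RefSeq gene starts (18.9%). The first transcribed base was A in 220 of the 363 windows (60.6%, 55.4 to 65.7), in 55.2% of those of matched peaks (52.1 to 58.2) and in 44.4% of all RefSeq starts. Peaks of these windows also differed in strength, with median scores of 34 for unmatched and 174 for matched ones. The letters were not compared at equal score. Below are stretches of 30 bases around GGAC, in capitals, 5′ to 3′, from 5 of the unmatched peaks with high scores among those windows.
SNRPD3: cgccgtagcatctttcgcagcGGACcgaag
SON: ctgggagcctggaGGACtagcgaggaggag
SPCS2: gagacgcagaggcGGACaagatggcggcgg
EIF1AX: tgccgccgagcgtGGACgcaggcggatctc
TECR: ggaggggcggggcGGACgcagagccgcgtt
The stretches lie at chr22:24556019-24556048, chr21:33543041-33543070, chr11:74949266-74949295 and chr19:14529567-14529596 on the plus strand for SNRPD3, SON, SPCS2 and TECR, and at chrX:20141800-20141829 on the minus strand for EIF1AX. SNRPD3, a core protein of spliceosomal snRNPs, had a score of 568 and 10.3-fold enrichment. SON, a splicing cofactor of nuclear speckles, was the only gene of these 5 with a DF2 siRNA peak elsewhere, and its unmatched peak had a score of 457 and 14.5-fold enrichment. SPCS2, a subunit of the signal peptidase, had a score of 394. EIF1AX, a translation initiation factor, had a score of 324, and TECR, an enzyme of fatty acid elongation, 186. A match of these letters does not show a methylated site.

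MicroRNA hairpins were the other short sequences inside these peaks. Of 30 RefSeq hairpins that lay whole inside a control peak, 9 lay in unmatched peaks (30%, 14.7 to 49.4), near the 28.1% of all control peaks. DF2 siRNA peaks held 28 hairpins whole, none of them these 9, which the rule itself fixes. The peaks of 4 of them were those of miRNA genes listed as such (MIR4482, MIR6720, MIR3124 and MIR4522), with scores of 22, 16, 5 and 3. The other 5 lay in peaks of host genes. MIR3658 lay in the 3′ UTR peak of UCK2, a uridine-cytidine kinase, which had the highest score of the 9, 686, with 17.6-fold enrichment. MIR4651 lay in the 5′ UTR peak of POR, the reductase that serves the cytochrome P450 enzymes, with a score of 168. The mature forms of the hairpin whose peak had the highest −log10 p, MIR4482 at 16.2 (20.6-fold enrichment, chr10:104268336-104268405, minus strand), and of the 2 hairpins whose host kept a DF2 siRNA peak are shown with bases 2 to 8, the seed, in capitals.
hsa-miR-4482-5p: aACCCAGUgggcuauggaaaug
hsa-miR-4482-3p: uUUCUAUUucucaguggggcuc
hsa-miR-3658: uUUAAGAAaacaccauggagau
hsa-miR-4651: cGGGGUGGgugaggucgggc
The 12 mature miRNAs of these hairpins had 12 distinct seeds, so none were grouped. An exonic peak over a hairpin is enriched RNA of the precursor or its host, and the mature miRNAs were not measured. VWA8, host of MIR5006, had a 20.6-fold peak as well, with a score of 77.

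Most unmatched peaks were weak ones. The deposited score, a whole number whose meaning the lists do not state, had a median of 26 for unmatched peaks of genes that kept a DF2 siRNA peak, 20 for those of genes without one, and 254 for matched peaks. Median fold enrichment, the deposited ratio per peak, was 9.99, 10.1 and 30.5 in the same order. The median −log10 of the deposited p was 2.36, 2.64 and 8.57, and 34.1% of unmatched peaks had a p between 0.01 and 0.05, against 7.76% of matched ones. Unmatched peaks were also narrow: the median exonic width was 400 nt in both classes and 800 nt among matched peaks, and 65% of them spanned at most 400 nt, against 21.8%. By width, 63.5% of control peaks of up to 200 nt were unmatched and 3.56% of those above 1200 nt.

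The share of control peaks that were unmatched fell steadily with strength. In the lowest decile of the list by score it was 85.6% (83.8 to 87.3), in decile 5 it was 21.4% (19.4 to 23.5) and in the highest 1.59% (1.03 to 2.34). By fold enrichment it went from 84.8% (82.9 to 86.5) through 24% to 0.445% (0.179 to 0.915). Unmatched peaks of genes without a DF2 siRNA peak outnumbered those of genes that kept one in the lowest decile by score, 787 to 560. They were fewer in decile 4, 211 to 273, and more numerous again in decile 7, 115 to 80, and in decile 10, 14 to 11.

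**Figure D1:**
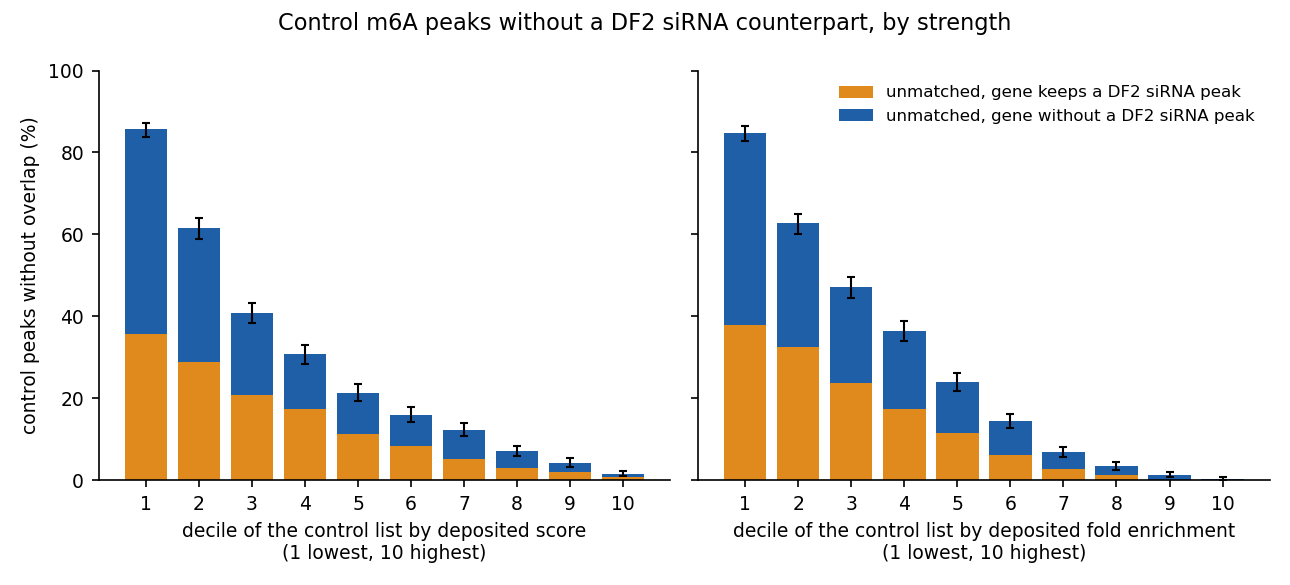
Share of control peaks that share no base with a DF2 siRNA peak (y axis, percent) by decile of the control list (x axis), ranked by deposited score on the left and by deposited fold enrichment on the right. Orange and blue parts of a bar are peaks of genes that keep and lack a DF2 siRNA peak, and black bars are 95% exact binomial intervals of the whole bar, which falls from 85.6% to 1.59% by score and from 84.8% to 0.445% by fold enrichment.

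The 2 measures did not carry the same information. Among peaks in the highest tercile by both, 18 of 3595 were unmatched (0.501%, 0.297 to 0.79). Among the 242 peaks in the highest tercile by score but the lowest tercile by fold enrichment, 103 were (42.6%, 36.3 to 49.1), about the share of peaks in the middle tercile by score at the same enrichment (42%, 39.2 to 44.8). Only 158 unmatched peaks (3.57%) were at or above the list's median in both measures, and 5950 matched ones (52.6%) were. A further 499 unmatched peaks (11.3%) had a high score with a low enrichment, and 257 (5.81%) the reverse. Among matched peaks these were 11.4% and 13.3%.

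**Figure D2:**
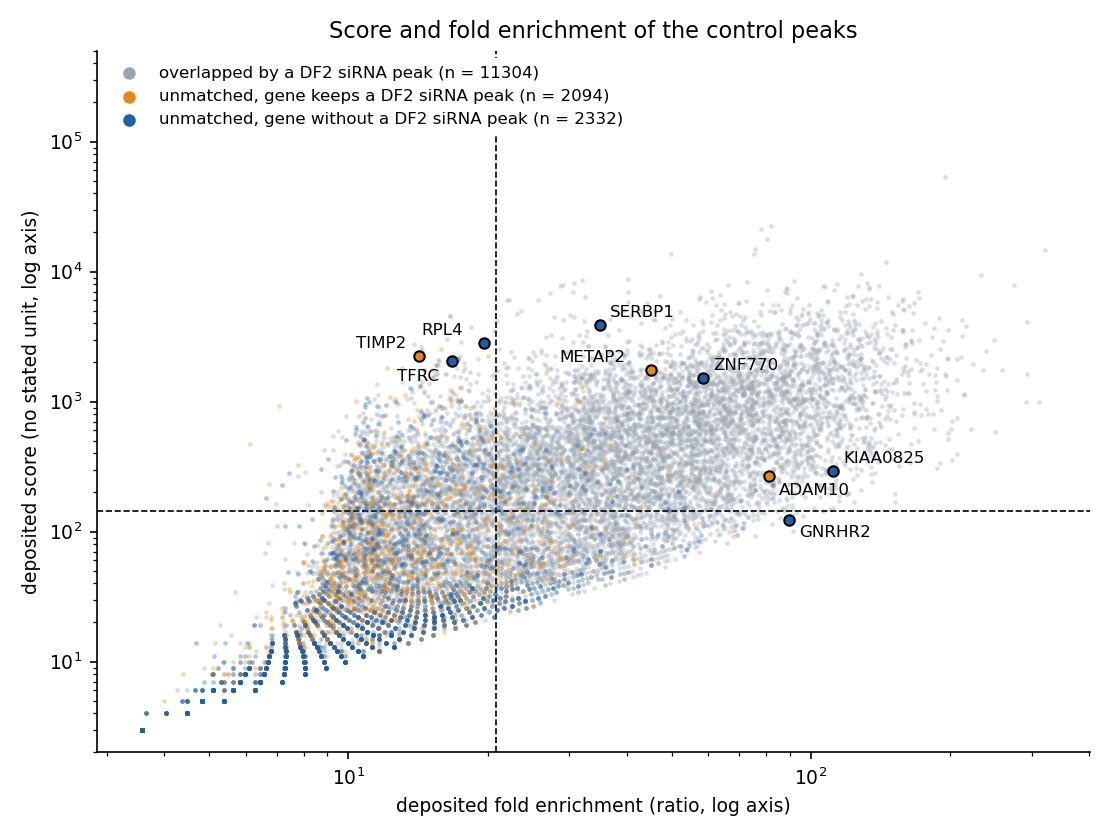
Deposited score (y axis, no stated unit, log scale) against deposited fold enrichment (x axis, ratio, log scale) of all control peaks, 1 point per peak, grey where matched, orange and blue where unmatched in genes that keep and lack a DF2 siRNA peak. Dashed lines are the list's medians, and 158 of the 4426 unmatched peaks lie at or above both; named points are described in the text.

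Among genes without any DF2 siRNA peak, the 10 unmatched peaks with the highest scores were on mRNAs of protein-coding genes, each with 1 control peak. SERBP1, an mRNA-binding protein found on ribosomes, had the highest score, 3894 with 34.9-fold enrichment, over its coding end, stop codon and 3′ UTR (chr1:67412886-67419812, minus strand). RPL4, a protein of the large ribosomal subunit, followed with 2823 and 19.6-fold at its stop codon (chr15:66499052-66499451, minus strand). PDIA6, a disulfide isomerase of the endoplasmic reticulum, had a score of 2139. TFRC, the transferrin receptor, had 2069, and XBP1, a transcription factor of the unfolded protein response, had 1904. RAN, the GTPase of nuclear transport, had 1738, KTN1 1618, PTMA 1562, TSPAN3 1558 and ZNF770 1509. The scores of all 10 lay in the top 10% of the control list, and the enrichment of 6 of them (RPL4, PDIA6, TFRC, XBP1, RAN and TSPAN3), from 14.5 to 19.6, was below the list's median of 20.8.

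Peaks with the highest enrichment were on other genes. KIAA0825 reached 112-fold at a score of 292 (chr5:94520068-94524079, minus strand), and all 3 of its control peaks were unmatched. ZNF107, a zinc finger gene, reached 103-fold in its 3′ UTR at a score of 283, with both of its control peaks unmatched. CCDC186 had 98.5-fold at its stop codon and a score of 416. GNRHR2, listed by RefSeq as a pseudogene, had 89.6-fold at a score of 122, and its −log10 p of 52 was the highest of any unmatched peak. KATNBL1 followed with 82.4-fold, MCF2L2 with 71.1-fold, COX6B2, a testis form of a cytochrome c oxidase subunit, with 68.9-fold, and LCA5, a protein of the cilium, with 62.6-fold. ZNF770, at 58.5-fold over 1800 nt, was the one gene of this class among the 10 highest by both measures.

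In genes that kept a DF2 siRNA peak, the 10 unmatched peaks with the highest scores differed in where that peak lay. In some, the DF2 siRNA peak was a neighbour at most 1000 nt away. MALAT1, a nuclear long non-coding RNA, had an unmatched peak with a score of 3467 and 20.6-fold enrichment (chr11:65498962-65499761, plus strand), 400 nt upstream of its DF2 siRNA peak. In TIMP2, an inhibitor of matrix metalloproteinases, a 3′ UTR peak with a score of 2242 ended 200 nt before the nearest DF2 siRNA peak, and in CD276, an immune checkpoint protein, a 3′ UTR peak with 1749 ended 600 nt before it. UBE2L3, a ubiquitin-conjugating enzyme, had 1381 in coding sequence, 1000 nt before its DF2 siRNA peak in the 3′ UTR, and 2 of its 3 control peaks were unmatched.

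In others the peak at the 3′ end was unmatched and the nearest DF2 siRNA peak lay at the 5′ end. METAP2, an aminopeptidase that removes the first methionine of new proteins, had a stop codon peak with a score of 1754 and 45.1-fold enrichment (chr12:95512814-95514748, plus strand), and its only DF2 siRNA peak was 38494 nt upstream at the 5′ UTR. MPZL1 had a stop codon peak with a score of 2248 and its DF2 siRNA peak 64902 nt upstream. PPP2CA, the catalytic subunit of protein phosphatase 2A, had 1290 and 31.8-fold at the stop codon, 26707 nt from a 5′ UTR peak. ADAM10, a membrane protease, had the highest enrichment of this class, 81.1-fold in its 3′ UTR (chr15:58591575-58592374, minus strand), and its only DF2 siRNA peak was a 5′ UTR peak with a score of 7. In METAP2, MPZL1 and PPP2CA 1 of 2 control peaks was matched, and in ADAM10 1 of 3. TM4SF1, a membrane protein, had 1829 in the 3′ UTR, 8176 nt from a 5′ UTR peak. In 2 genes the order was the reverse. CLU, a secreted chaperone, had the second highest score, 2546, in a peak over its 5′ UTR, coding sequence and stop codon. Its DF2 siRNA peak lay 7339 nt downstream in the 3′ UTR and was weak, with a score of 6 and 5.46-fold enrichment. DDX21, a nucleolar RNA helicase, had an unmatched 5′ peak with a score of 1900. Its DF2 siRNA peak lay 20510 nt downstream at the stop codon, with a score of 224.

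Other unmatched peaks of this class with high enrichment were those of FAM122A (56-fold), IKBIP (49.4-fold), PIK3CA, the catalytic subunit of a phosphoinositide 3-kinase (49.2-fold), SYNE2, a giant protein of the nuclear envelope (47.3-fold), SHPRH, a ubiquitin ligase of DNA repair (46.7-fold), and RIF1, a DNA repair and replication timing factor (45-fold). In FAM122A the nearest DF2 siRNA peak was 800 nt away and in SYNE2 400 nt away, whereas in PIK3CA and SHPRH it was over 30 kb away, at 31193 and 33974 nt.

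A gene that kept a DF2 siRNA peak usually had another control peak that was matched: this held for 1622 of 1745 such genes (93%, 91.6 to 94.1). The remaining 123 genes, with 143 peaks, had peaks in both lists that nowhere shared a base. The peak with the highest score among them was that of TM9SF3 at its stop codon, 1088, with the DF2 siRNA peak 59644 nt upstream in the 5′ UTR. ZNF207 had 994 at the stop codon and its DF2 siRNA peak 18581 nt upstream. ATF4, the main transcription factor of the integrated stress response, ran the other way: a 5′ UTR peak with a score of 863, and a DF2 siRNA peak 1701 nt downstream at the stop codon. IPO5 had 746 in the 3′ UTR and PAPOLA, a poly(A) polymerase, 616 at the stop codon. Both had a DF2 siRNA peak at the 5′ end, with low scores of 4 in IPO5 and 16 in PAPOLA. These genes were picked by score after their values were seen.

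Distances to the nearest DF2 siRNA peak of the same gene, measured on the genome between block ends and so across introns, had a median of 3832 nt with quartiles of 800 and 20533 nt. Of the 2094 peaks, 52 abutted a DF2 siRNA peak, 159 lay within 200 nt without touching it, and 654 (31.2%) lay within 1000 nt. Of the 855 distances of at most 2000 nt, 742 (86.8%) were exact multiples of 200 nt, and 87.2% of control peaks were a multiple of 200 nt wide. Of the 52 that touched a DF2 siRNA peak without a shared base, just inside the limit of the rule, TMEM261, TRABD2A and ATF3 had the highest scores, 415, 243 and 230. Just outside it were CCDC183, with 2 shared bases and a score of 6, HCN2 with 8 bases and OBFC1 with 17 bases, both with a score of 13.

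The nearest DF2 siRNA peak was downstream of the unmatched peak in 46.7% of the 2094 (44.5 to 48.9). A 5′ UTR peak has most of its gene downstream and a 3′ UTR peak most of it upstream, and the values were 264 of 286 (92.3%, 88.6 to 95.1) and 101 of 672 (15%, 12.4 to 18). The nearest DF2 siRNA peak was at the stop codon for 56.3% of the 5′ UTR peaks and 53.7% of the 3′ UTR peaks, and 43.7% of all DF2 siRNA peaks carried that label. Another 3′ UTR peak was nearest for 28.6% of 3′ UTR peaks, and another 5′ UTR peak for 9.09% of 5′ UTR peaks.

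**Figure D3:**
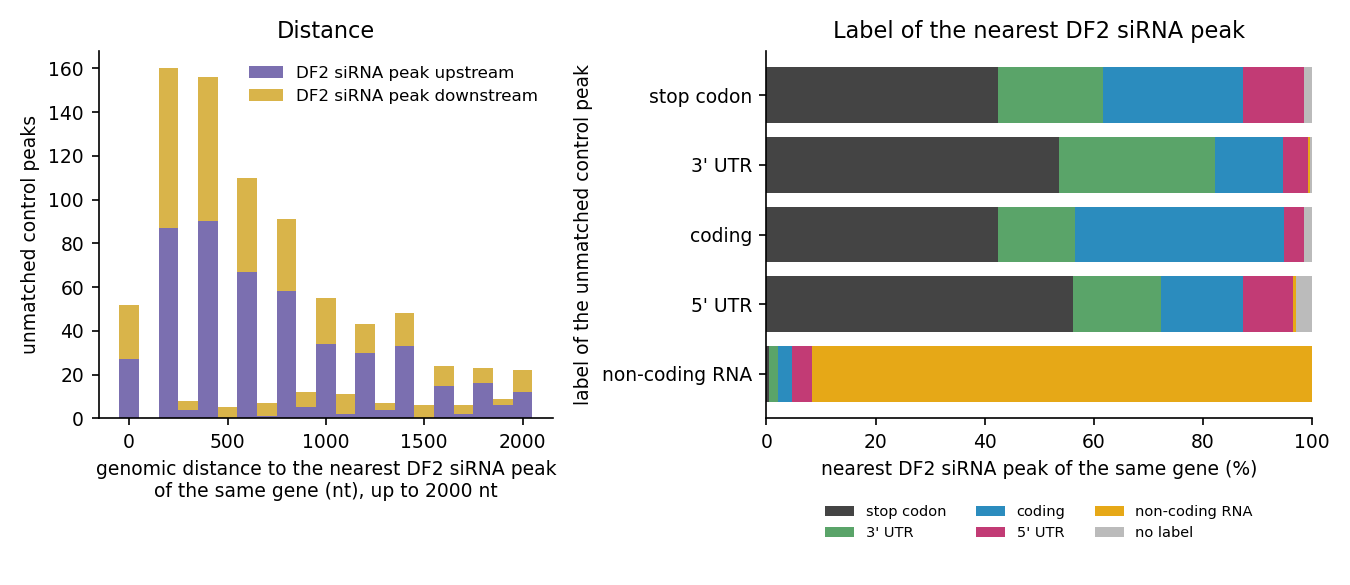
Left, number of unmatched control peaks (y axis) by genomic distance to the nearest DF2 siRNA peak of the same gene (x axis, nt, up to 2000 nt), purple where that peak is upstream and yellow where it is downstream; bars stand at multiples of 200 nt, which hold 742 of the 855 distances. Right, label of that nearest DF2 siRNA peak (x axis, percent of peaks) for each label of the unmatched control peak (y axis), with the stop codon at 53.7% for 3′ UTR peaks and 56.3% for 5′ UTR peaks.

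By the authors' feature labels, unmatched peaks were least frequent at stop codons, 1100 of 6721 (16.4%, 15.5 to 17.3), beside the 28.1% of all control peaks. The share was 22.5% in coding sequence (20.9 to 24.2), 36% in 3′ UTRs (34.3 to 37.8), 43.6% in 5′ UTRs (40.8 to 46.5) and 47.2% in non-coding RNA (45.1 to 49.4). It was 58.2% for the 378 peaks without a label. Scores differed between labels as well, with medians over all control peaks of 338 at stop codons, 95 in 3′ UTRs, 37 in 5′ UTRs and 27 in non-coding RNA.

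Within terciles of the list by score the order changed. In the lowest tercile, non-coding RNA had the highest share of the 5 labels, 64.2% (61.7 to 66.7), and stop codons the lowest, 51.6% (48.3 to 54.8). In the middle tercile non-coding RNA was lowest at 8.14% (5.96 to 10.8), against 26.8% in 3′ UTRs (24.1 to 29.5) and 24.1% in 5′ UTRs (19.7 to 28.9). In the highest tercile, 1 of 101 non-coding peaks was unmatched, that of MALAT1, and 8.31% of 3′ UTR peaks (6.37 to 10.6). The shares of 3′ UTR peaks exceeded those of stop codon peaks in each tercile, with 61.6% against 51.6%, 26.8% against 19.8% and 8.31% against 4.54%. Median scores of all 3′ UTR peaks were also lower than those of stop codon peaks within each tercile: 19 against 27, 135 against 161 and 624 against 819. The 2 labels were not compared at equal score, enrichment or width.

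**Figure D4:**
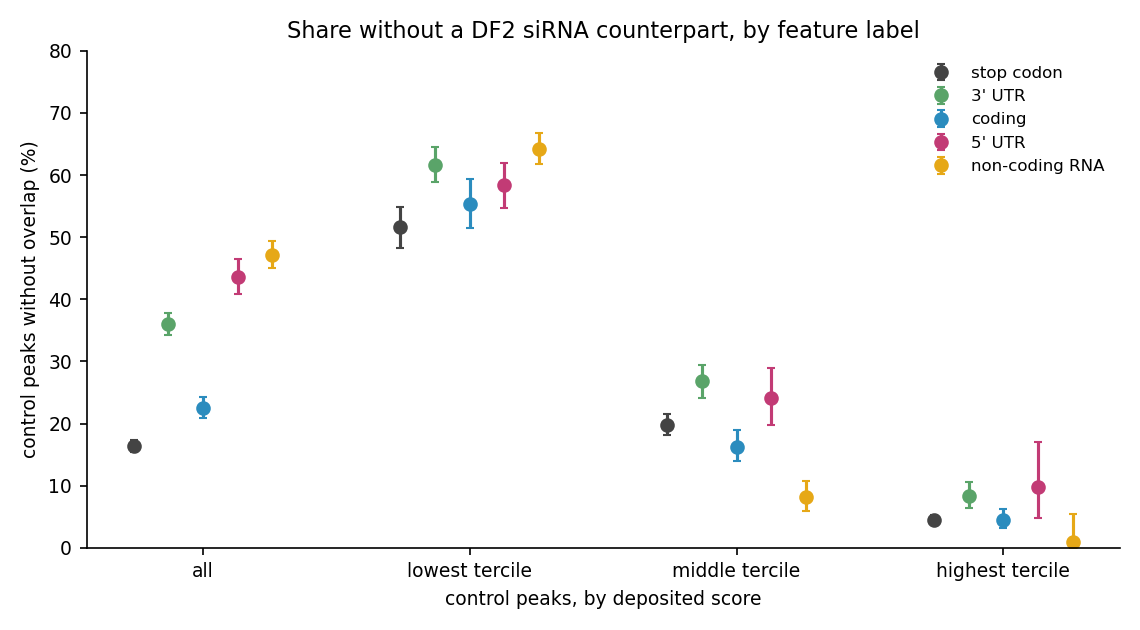
Share of control peaks without overlap (y axis, percent, with 95% exact binomial intervals) for 5 feature labels, over all control peaks and within terciles of the list by deposited score (x axis). Non-coding RNA is highest over all peaks (47.2%) and in the lowest tercile (64.2%), and lowest in the middle (8.14%) and highest tercile (0.99%).

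Labels also differed in whether the gene kept a peak. Of unmatched non-coding peaks, 80.7% (78.1 to 83.1) were in genes without a DF2 siRNA peak, and of unmatched 3′ UTR peaks 35.9% (33 to 38.9). The value was 55.4% at stop codons, 45% in coding sequence and 43.9% in 5′ UTRs. Genes also differed in how many control peaks they held. Protein-coding genes had 13227 peaks in 7997 genes, long non-coding RNAs 630 in 415, and genes without a RefSeq match 1564 in 1314. The part of peaks per gene in this split was not tested. By RefSeq kind, 25.3% of peaks of protein-coding genes were unmatched (24.6 to 26), 37.9% of those of long non-coding RNAs (34.1 to 41.9) and 49.5% of those of pseudogenes (43.6 to 55.3), and the median scores of all their control peaks were 189, 36 and 28. By chromosome, the share ran from 17.3% on 22 (13.9 to 21.3) and 19.9% on 16 (17.3 to 22.7) to 34.5% on 4 (30.4 to 38.7) and 37.5% on 18 (31.7 to 43.6).

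Unmatched peaks were spread over many genes. They lay in 3725 of the 9971 genes with a control peak (37.4%), and 3156 of these genes had 1, 474 had 2, 70 had 3, 20 had 4 and 5 had 5 or more. The share was similar for genes with 1 control peak (29.4%, 28.3 to 30.6) and for those with 6 to 18 (31.9%, 27.1 to 37). Of the 2021 genes without a DF2 siRNA peak (20.3% of genes with a control peak), 1976 had all their control peaks unmatched, and 45 had one overlapped by a peak of another gene.

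A few genes held several. MUC16, a large membrane mucin, had 10 unmatched peaks among 18, with scores from 26 to 108 and 11 DF2 siRNA peaks. DST, a giant cytoskeletal linker, had 6 of 14, RPAP2, a phosphatase of RNA polymerase II, 5 of 7, and NRDE2 and MACF1 4 each, of 8 and 7. Of genes without a DF2 siRNA peak, AKAP6, a scaffold that tethers protein kinase A, had 6 of 6 with scores from 6 to 19, and PECAM1, an adhesion protein of endothelial cells, 5 of 5 with scores from 5 to 39. ZNF605 and RP1L1 had 4 of 4.

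**Figure D5:**
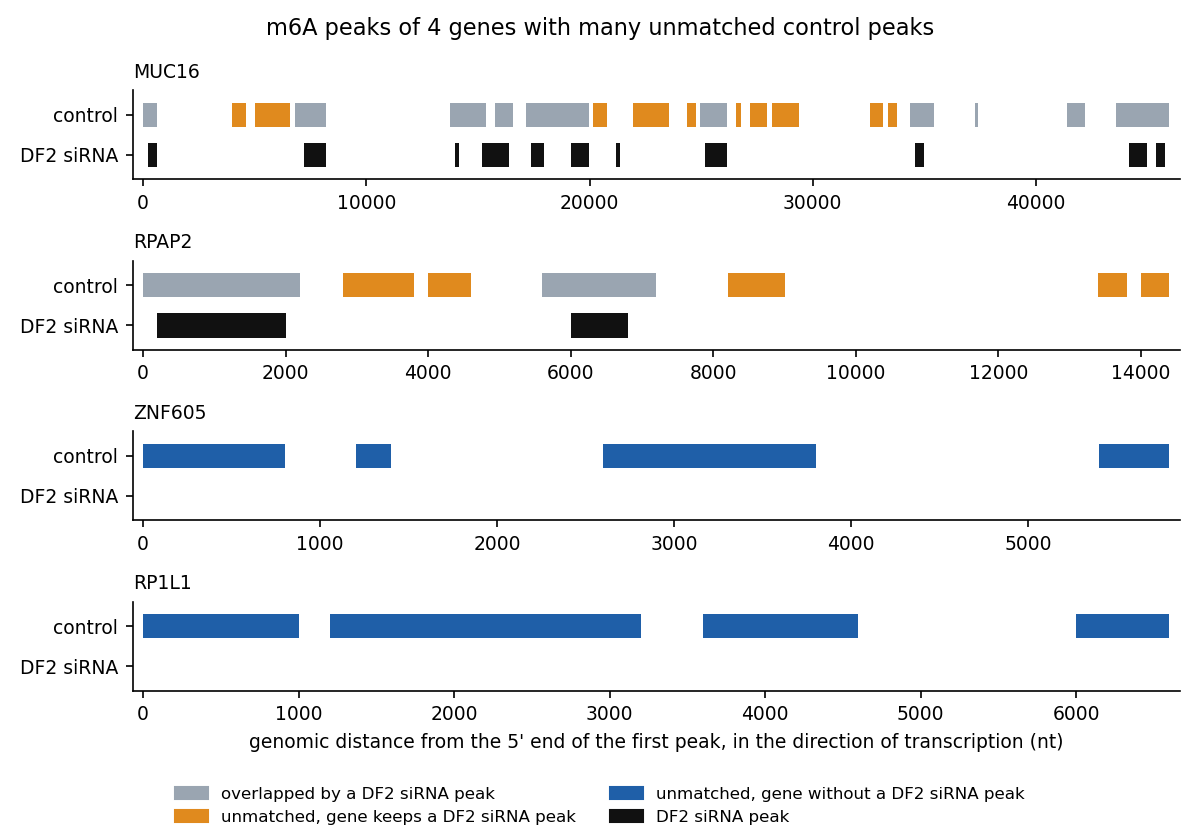
Exonic blocks of the m6A peaks of MUC16, RPAP2, ZNF605 and RP1L1 along the genome, in the direction of transcription (x axis, nt from the 5′ end of the first peak), with control peaks in the upper lane and DF2 siRNA peaks (black) in the lower. Grey control blocks belong to matched peaks, also where such a peak continues into exons without a DF2 siRNA block, and orange and blue blocks to unmatched ones; 10 of 18 MUC16 peaks and 5 of 7 RPAP2 peaks are unmatched, and the lower lanes of ZNF605 and RP1L1 are empty.

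Gene lists for the processes around m6A and mRNA decay were read against the 28.1% of all control peaks. Of the 18 lists, 15 had an interval that holds this share. Under at least 1 alternative setting, 15 changed side relative to the share of all control peaks in that same setting. The shares of all 18 lists are descriptions. Of 34 peaks on m6A writers, erasers and readers, 7 were unmatched (20.6%, 8.7 to 37.9). The highest score was that of a 3′ UTR peak of YTHDF1, a paralog of YTHDF2, at 359, followed by KIAA1429 (VIRMA), a subunit of the methyltransferase complex, at 215. Of the genes of this list with an unmatched peak, only YTHDC2, a reader with a helicase domain, had no DF2 siRNA peak. The 3′ UTR peak of YTHDC2 had a score of 48. Of 50 peaks on deadenylation and decay genes, 15 were unmatched (30%, 17.9 to 44.6). CNOT11, a subunit of the CCR4-NOT deadenylase, had 294, DIS3, a ribonuclease of the exosome, 201, and HRSP12, an adaptor between YTHDF2 and an RNase, 79, each in a gene without a DF2 siRNA peak. PUM2, a 3′ UTR binding repressor, had both of its control peaks unmatched, the stronger with a score of 330.

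Cytosolic ribosomal protein genes had 12 unmatched peaks of 29 (41.4%, 23.5 to 61.1), 10 of them in genes without a DF2 siRNA peak. The median score of the list's control peaks was 54, below the 143 of all control peaks. RPL4 led with 2823, RPS24 had all 3 of its peaks unmatched with a highest score of 699, and RPL6 had 236. Mitochondrial ribosomal protein genes had 15 of 59 (25.4%, 15 to 38.4), led by MRPS30 at 1460 and 39-fold enrichment and MRPS28 at 559. Translation factors had 11 of 35 (31.4%, 16.9 to 49.3), led by EIF3J at 535 and EIF2S2 at 416, and oxidative phosphorylation genes 8 of 23 (34.8%, 16.4 to 57.3), led by UQCRFS1 at 400.

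In the list of the integrated stress and unfolded protein responses, 15 of 41 peaks were unmatched (36.6%, 22.1 to 53.1). XBP1 had 1904 and PSAT1, an enzyme of serine synthesis, 626, both in genes without a DF2 siRNA peak. With a p or FDR 100 times smaller in both lists, 2 of 22 peaks of this list were unmatched (9.09%), beside the 32.1% of all control peaks at that limit. Both peaks of ATF4 were unmatched, and the 3′ peak of ATF3, a stress-induced transcription factor, touched the DF2 siRNA peak. Heat shock genes had 10 of 37 (27%, 13.8 to 44.1), led by DNAJC10, a disulfide reductase of the endoplasmic reticulum, at 883. Interferon genes had 11 of 40 (27.5%, 14.6 to 43.9), led by the kinase JAK1 at 542.

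In 3 lists of regulatory genes most unmatched peaks were in genes that kept a DF2 siRNA peak, beside 47.3% of all unmatched peaks. The interval of the signalling list holds 28.1%, and those of the other 2 lie below it. Other lists had such a majority too, among them m6A genes (6 of 7), decay genes (12 of 15) and DNA repair genes (12 of 19). Cytosolic ribosomal protein genes (2 of 12) did not. The 148 control peaks of chromatin regulators lay in 55 genes, beside 15730 peaks in 9971 genes for the whole list. The part of peaks per gene in this split was not tested. Chromatin regulators had 26 of 148 (17.6%, 11.8 to 24.7), 25 of them in such genes, among them ARID2, a subunit of a SWI/SNF complex, with 392, and the histone demethylase KDM5B with 385. Genes of the TGF-beta, Hippo, Notch and Wnt pathways had 22 of 110 (20%, 13 to 28.7), 20 of them in such genes, led by the receptor TGFBR1 with 899 and the transcription factor TEAD1 with 535. Immediate early and growth-related factors had 7 of 54 (13%, 5.37 to 24.9), all 7 in such genes. The median scores of the control peaks of these 3 lists, 434, 370.5 and 269.5, were above the 143 of all control peaks. In the upper 50% of control peaks by fold enrichment, the shares in the order of these lists were 5%, 1.47% and 0% (0 of 30), beside 5.28% of all peaks. In the upper 50% by score they were 6.96%, 9.64% and 2.7%, beside 8.32%.

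The intervals of the next 5 lists hold the share of all control peaks. DNA repair genes had 19 of 73 (26%, 16.5 to 37.6), led by RPA1, a single-strand binding protein, at 634, cell cycle genes 7 of 32 (21.9%, 9.28 to 40), led by the kinetochore protein CENPF at 449, and autophagy genes 7 of 41 (17.1%, 7.15 to 32.1), led by MAP1LC3B at 327. Osteoblast and matrix genes had 11 of 46 (23.9%, 12.6 to 38.8), with TIMP2 at 2242, TIMP1, another metalloproteinase inhibitor, at 993, and the integrin ITGB1 at 511. Long non-coding RNAs had 8 of 30 (26.7%, 12.3 to 45.9): MALAT1, HOTAIR at 204, and 6 more peaks with scores up to 37. Genes of other cell types had 7 of 11 (63.6%, 30.8 to 89.1), and this interval lies above the share of all control peaks. These 7 peaks lay in 3 genes, and 5 of them were those of PECAM1, with scores up to 39. The interval counts peaks of the same gene as separate. The median score of the list's 11 control peaks was 18, below the 143 of all control peaks.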

How the data were processed

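Per the submitters' processing notes, HISAT2 aligned the reads, to hg38; how peaks were called, annotated and filtered, and whether strand was used, was not given in the sources used here. Deposited by the authors was 1 list of exonic peaks per condition, with a fold enrichment (a ratio), a −log10 value and a score per peak. Per the file headers, the −log10 column holds a p-value for control cells but an FDR for knockdown cells, with a minimum of 1.3 in both. Coordinates are hg38, counted from 1. On the minus strand block sizes were listed in reverse order to block starts, and this was corrected; it changed 4228 of 7635 control rows. Overlap needed 1 shared base on the same strand. The counting was checked base by base on control peaks drawn at random. It was also run on simulated lists, whose expected counts used the same overlap functions and so could not reveal an error in them. Of several feature labels on a peak, the stop codon took precedence, then 3′ UTR, then coding, then 5′ UTR. Of 9971 control genes, 8657 matched RefSeq (GRCh38.p14) by symbol or a unique older name within 100000 bp.

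Named genes were YTHDF2, the 10 highest by score and by fold enrichment in each class, the 5 with most unmatched peaks in each class, leading genes of 18 lists, and the peaks at the limit of the rule; some genes this rule selects are not reported here. Genes of the start windows, miRNA hosts, genes whose peaks nowhere overlap, and ZNF605 and RP1L1 among ties were chosen after their values were seen. The members, lists and rule were chosen with earlier results of these data known. For gene starts, the first start in table order was tried first and replaced by the 5′-most after its counts were seen. Tools were scipy 1.17.1, numpy 2.4.6, pandas 2.3.3, matplotlib 3.10.9 and Python 3.11.15.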

Additional observations from a re-analysis of the deposited data

How the results depend on the processing

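The unmatched share, 28.1%, was 35.7% when both peaks had to share at least 50%, 27.4% on either strand, 14.7% for control peaks with a p 100 times smaller, 32.1% with that limit on p or FDR in both lists, 8.32% and 5.28% in the upper 50% by score and by fold enrichment, and 53.8% for peaks of at most 400 nt. By header, the limit on both lists was on a p-value for control cells and on an FDR for knockdown cells. Whole spans and DF2 siRNA blocks widened by 200 nt gave 27.8% and 27.7%. Restriction to chromosomes 1 to 22 and X removed no control peak, so the share could not move from 28.1%. Widening reached gaps below 200 nt but not gaps of exactly 200 nt, since 1 shared base was still needed. It left 4359 peaks unmatched, although 211 unmatched peaks lay within 200 nt of a DF2 siRNA peak of their gene. The share in genes that kept a peak, 47.3%, was 57.7% with 50% shared, 42.9% and 33.7% with the stricter limit on the control list and on both, 38.8% in the upper 50% by fold enrichment, and 49.2% at 400 nt or less. Labels in the lowest, middle and highest terciles by score had shares of 51.6%, 19.8% and 4.54% (stop codon), 61.6%, 26.8% and 8.31% (3′ UTR), 55.4%, 16.3% and 4.55% (coding), 58.4%, 24.1% and 9.71% (5′ UTR), and 64.2%, 8.14% and 0.99% (non-coding). At 400 nt or less they were 47.2%, 57.3%, 40.2%, 50.7% and 71.7% in that order, and with 1 label only 39% for 3′ UTR and 24.3% for coding peaks. At that width, the medians of matched peaks, unmatched peaks of genes that kept a peak and unmatched peaks of genes without one were scores of 88, 20 and 14, enrichments of 13.6, 9.06 and 8.64, and, for the first and last, widths of 400 and 399 nt. The causes were not tested, beyond the choice of peaks that each setting makes.

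The next 3 alternatives were added after the data were seen. Block sizes as deposited gave 4423 unmatched peaks, 4422 of them the same. Without control peaks that overlap each other the share was 28.9%. With the first listed start in place of the 5′-most, GGAC was in 62 of 363 windows of unmatched peaks (17.1%) and 254 of 1033 of matched ones (24.6%).

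Of 216 values for the 18 gene lists, 160 stayed inside the list's interval and 56 did not. The 160 include those of the chromosome setting, which removed no control peak and so could not move any list. Chromatin regulators, cytosolic ribosomal proteins and immediate early factors were the 3 lists that kept their side under each alternative, and 15 did not. The side was taken relative to the share of all control peaks in the same setting. Some margins were small. Chromatin regulators had 5% against 5.28% in the upper 50% by fold enrichment. Ribosomal proteins had 33.3% (4 of 12) against 32.1% with the limit on both lists, and 55% (11 of 20) against 53.8% at 400 nt or less. The interval of the ribosomal list, 23.5 to 61.1, holds 28.1%. Of 41 peaks named by score, enrichment or nearness, TMEM261, TRABD2A and ATF3 were matched after widening, and the first 2 of these with block sizes as deposited. No paired analysis was possible because each list holds both immunoprecipitates of a condition; for the same reason no library could be left out. Depth is unknown, and a value near the authors' limit may fall on either side of it in another library.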
